A study of Mus musculus with 8 samples.

Results

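The manchette is a temporary skirt of microtubules that forms around the nucleus of elongating spermatids. It shapes the sperm head, and cargo is carried along it towards the base of the growing tail, which is called intramanchette transport. The 7 genes Hook1, Rimbp3, Meig1, Iqcg, Lrguk, Ccdc42 and Cep131 encode proteins of this structure or of its transport, and they were taken by symbol from a table of 19906 genes. All 7 were found, and all 7 passed the filter on low counts. HOOK1, RIMBP3 and LRGUK are linked to the manchette microtubules themselves, and loss of HOOK1 gives the abnormal sperm heads of azh mice. MEIG1, IQCG, CCDC42 and CEP131 are known for parts in building the tail, its axoneme or its base.

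Testes of 4 wild-type (Tmem232+/+) and 4 knock-out (Tmem232-/-) males, aged 2 months and given no treatment that the labels name, each gave 1 library. The knock-out was bought as a line made by Cas9 injection into C57BL/6 oocytes. It lacks, in every cell, a fragment of Tmem232 between introns 4 and 8 that shifts the reading frame. Tmem232 encodes a transmembrane protein, and the comparison asks which testis transcripts differ when it is disrupted. Total counts lay between 15428421 and 16350871 per library. Levels are given as CPM, counts per 1000000 after TMM scaling, and differences were tested with edgeR on 15787 genes. A gene was called at a p under 0.05 adjusted over all tested genes. The p-values measure the spread between these mice. In whole testis, fewer cells of a type and less RNA per cell cannot be told apart.

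The level of the targeted gene did not check the labels. Tmem232 had 122 to 148 CPM in the libraries labelled knockout and 106 to 111 in those labelled wild type (log2 fold change 0.27, edgeR adjusted p = 0.034), so it was higher under the knockout label. A count over the whole gene need not fall with an internal deletion, and reads on the deleted exons cannot be separated from the others in a table with 1 count per gene. Directions are therefore those of the labels throughout.

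Hook1 was the only one of the 7 genes that was called. It was 1.40-fold higher in the libraries labelled knockout (95% interval 1.25 to 1.57). Of all tested genes 10.3% were called higher and 11.8% in either direction, so 1 of 7 is near the background share. By edgeR 0 of the 7 were called lower, where the background share was 1.46%. In the alternative fits 0 of the 7 were called lower as well, where between 28 and 466 of all genes were, depending on the fit. Under the rule of a fold change of at least 2 with an unadjusted p under 0.05, which took 5.59% of all tested genes, 0 of the 7 were called. The median log2 fold change of the 7 genes was 0.061, against -0.054 for all tested genes. The median of all tested genes was -0.0067 without replicate 1 labelled wild type, -0.026 without replicate 3 labelled wild type and -0.087 with library size alone. Hook1 was also the only one of the 7 whose groups of 4 libraries did not overlap, as was true of 18.7% of all tested genes.

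**Figure D1:**
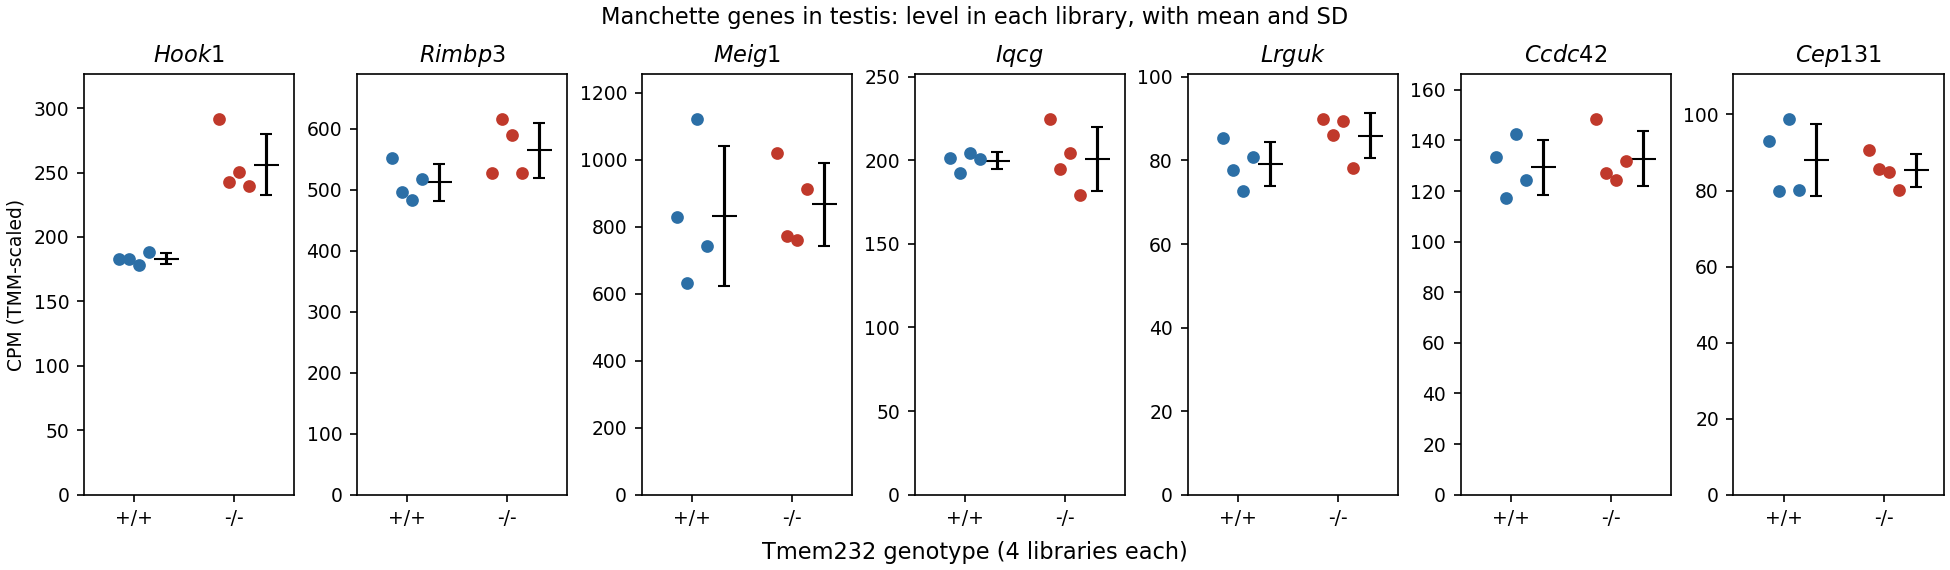
Level of each of the 7 manchette genes in each testis library, in CPM after TMM scaling, for 4 libraries labelled wild type (blue) and 4 labelled knockout (red), with the mean and SD beside the points. Only for Hook1 do all red points lie above all blue points (239.7 to 291 against 178 to 188 CPM).

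Hook1 (Entrez ID 77963) lies on the plus strand of chromosome 4 of GRCm38 from 95967191 to 96025412. Its longest coding transcript in the reference annotation has 22 exons and encodes 728 residues. HOOK1 is a coiled-coil linker protein that binds microtubules. In the libraries labelled knockout, replicates 1 to 4 held 291, 243, 251 and 239.7 CPM of Hook1. Those labelled wild type held 183, 183, 178 and 188 CPM. Replicate 1 labelled knockout was the highest of all, and the remaining 3 of that label lay close together and above every wild-type library. The means were 256 ± 23.9 CPM (SD, n = 4) and 183 ± 4.24 CPM (SD, n = 4). On the log2 scale the difference was 0.48 with a standard error of 0.074 (edgeR adjusted p = 0.000896). An exact permutation test of CPM gave a two-sided p of 0.029, the smallest that 4 mice against 4 allow. Hook1 was called higher in all 18 alternative fits, with log2 fold changes from 0.42, without replicate 1 labelled knockout, to 0.59.

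The deposited FPKM, fragments per kilobase of transcript scaled to the library total, gave a larger difference for Hook1 than the counts. Its mean FPKM was 58.6 ± 4.85 (SD, n = 4) under the knockout label against 38.7 ± 1.36 (SD, n = 4), a ratio of 1.51. The count divided by the FPKM and by the library total gives the length that the deposited values assign to a gene's mix of transcripts, here called the implied length, after a shift common to each library is removed. This measure was added after the data were seen, and for Hook1 it is the same gap between the FPKM ratio and the count ratio on another scale, so its p-values are no independent evidence of that gap. For Rimbp3, which has a single transcript in the table, it was between 5674 and 5675 bases in every library. The reference annotation gives the Rimbp3 transcript 5380 bases, so implied and annotated lengths need not match.

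Hook1, with 11 transcripts in the table, had an implied length of 4291, 4202, 4374 and 4401 bases in replicates 1 to 4 labelled knockout. In those labelled wild type it was 4746, 4719, 4872 and 4790 bases. Every library labelled knockout was thus below every other library, where 5.04% of the 7964 genes with several transcripts showed no overlap in either direction, and the mean fell by 9.72%, a difference of -0.15 on the log2 scale (95% interval -0.19 to -0.11). Limma gave an adjusted p of 0.025 over these genes, of which 0.289% were called shorter and 0.477% called in either direction. That adjusted p rose above 0.05 without any single one of the 8 libraries, to between 0.059 and 0.116, while the log2 difference stayed between -0.16 and -0.13. The exact permutation test gave a two-sided p of 0.029. In the reference annotation the 11 Hook1 transcripts range from 428 to 5517 bases, and besides the full transcript of 5517 bases only 1, of 1506 bases and 221 residues, is annotated as coding. The table holds no values per transcript, and a change in the mix of Hook1 transcripts was not tested. The annotated exons of Hook1 also share 317 bases with those of the noncoding gene 9530080O11Rik, which was not tested, and the sources used here do not say whether counting used the strand.

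**Figure D2:**
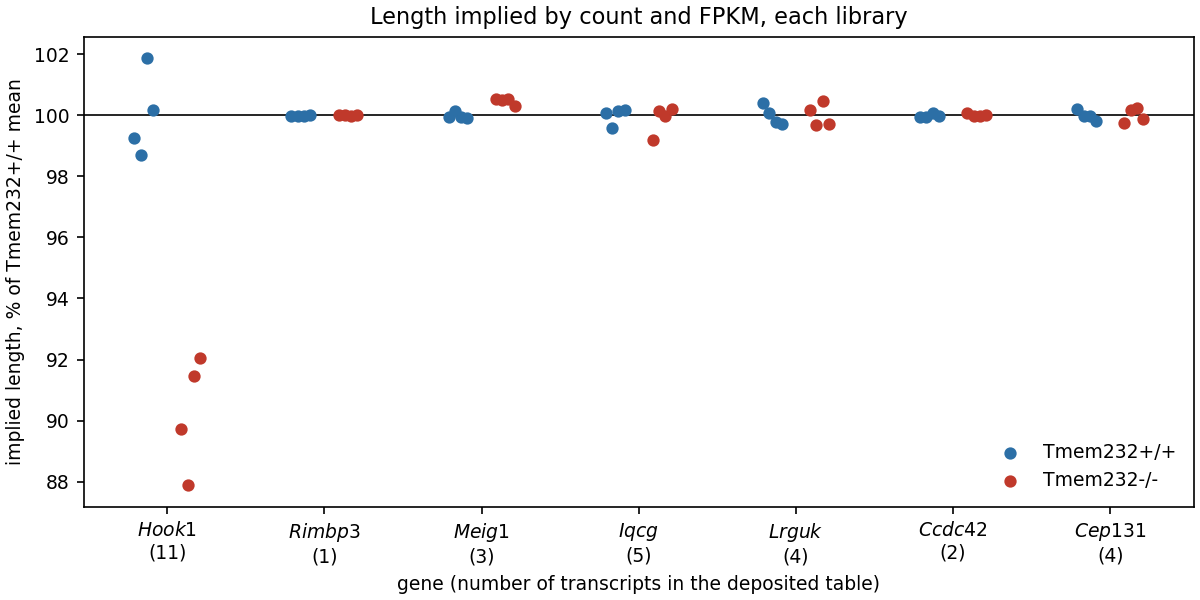
Implied length of each gene in each library, as a percent of the mean of the libraries labelled wild type, with the number of transcripts in the table in brackets. The 4 Hook1 points of the libraries labelled knockout (red) lie well below 100%, with a mean implied length of 4317 against 4782 bases, while the points of the other 6 genes stay near 100%.

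The implied lengths of the other 6 genes differed by less than 1% between the labels. Meig1, with 3 transcripts, had 436 to 438 bases under the knockout label and 435 to 436 bases under the wild-type label. These did not overlap (exact permutation test, two-sided p = 0.029) but differed by only 0.471%, with a limma adjusted p of 0.081. For Rimbp3, Iqcg, Lrguk, Ccdc42 and Cep131 the groups overlapped. Tmem232 itself had implied lengths of 2205 to 2207 bases in the libraries labelled knockout and 2257 to 2332 bases in the others, with no overlap (exact permutation test, two-sided p = 0.029) and a limma adjusted p of 0.082. This measure of Tmem232 was thus lower in each library labelled knockout, while its count was higher.

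Rimbp3 (Entrez ID 239731, plus strand of chromosome 16 from 17208135 to 17213982) encodes a manchette protein of 1606 residues that binds HOOK1. Replicates 1 to 4 reached 527, 616, 590 and 527 CPM under the knockout label, and 552, 496, 484 and 517 CPM under the wild-type label. A pair of libraries labelled knockout exceeded all others, and the other pair fell within the range of the libraries labelled wild type. The log2 fold change was 0.14 (95% interval -0.025 to 0.31, edgeR adjusted p = 0.276). Unlike its partner Hook1, Rimbp3 was not called in any of the 18 alternative fits.

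Lrguk (Entrez ID 74354, plus strand of chromosome 6 from 34028990 to 34134034) encodes a protein of up to 1340 residues with leucine-rich repeats and a guanylate kinase-like domain, and it is needed for the manchette to form normally and for the tail to grow. Under the knockout label replicates 1 to 4 stood at 89.9, 86.0, 89.6 and 78.3 CPM, against 85.4, 77.7, 72.6 and 80.8 CPM under the wild-type label. Of the libraries labelled knockout, 3 exceeded all others and replicate 4 did not. Its log2 fold change was 0.12 (95% interval -0.042 to 0.28, edgeR adjusted p = 0.344).

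Meig1 (Entrez ID 104362, minus strand of chromosome 2 from 3409043 to 3422648) encodes a small protein of 88 residues that is carried on the manchette and is needed to build the tail. It was the most abundant of the 7 and the most variable. Its replicates 1 to 4 were at 1022, 774, 761 and 915 CPM under the knockout label, and at 829, 633, 1121 and 744 CPM under the wild-type label. Both the highest and the lowest library were labelled wild type, so the groups overlapped throughout. The coefficient of variation was 14.3% under the knockout label and 25.2% under the wild-type label, and its lowest count was 10450. The log2 fold change of 0.061 had a 95% interval from -0.29 to 0.41 (edgeR adjusted p = 0.840), the widest of the 7.

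Ccdc42 (Entrez ID 276920, plus strand of chromosome 11 from 68587037 to 68597954) encodes a coiled-coil protein of 316 residues found at the manchette and at the junction of head and tail. The 4 knockout-labelled replicates gave 148, 127, 124 and 132 CPM of Ccdc42, and the 4 labelled wild type gave 133, 117, 142 and 124 CPM. The ranges overlapped, and the log2 fold change was 0.038 (95% interval -0.14 to 0.22, edgeR adjusted p = 0.804).

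Cep131 (Entrez ID 12009, minus strand of chromosome 11 from 120064429 to 120086861) encodes a centriolar satellite protein also seen on the manchette. Replicates 1 to 4 labelled knockout, at 90.7, 85.5, 84.8 and 80.1 CPM, all lay inside the range of those labelled wild type, at 93.1, 79.9, 98.7 and 80.2 CPM. The log2 fold change was -0.045 (95% interval -0.23 to 0.14, edgeR adjusted p = 0.772).

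Iqcg (Entrez ID 69707, minus strand of chromosome 16 from 33014270 to 33056418) encodes a calmodulin-binding protein of 419 residues that is part of the regulatory complex between axonemal doublets and is needed for spermatids to form a tail. Its CPM were 224, 194, 205 and 179 for the 4 replicates labelled knockout. The 4 labelled wild type had 201, 192, 204 and 201 CPM, a narrow range inside that of the other label. The log2 fold change was 0.0062 (95% interval -0.16 to 0.17, edgeR adjusted p = 0.968). Its counts were not whole, its annotated exons share 2965 bases with those of Lrch3, and the effect of any shared reads on its level was not tested.

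**Figure D3:**
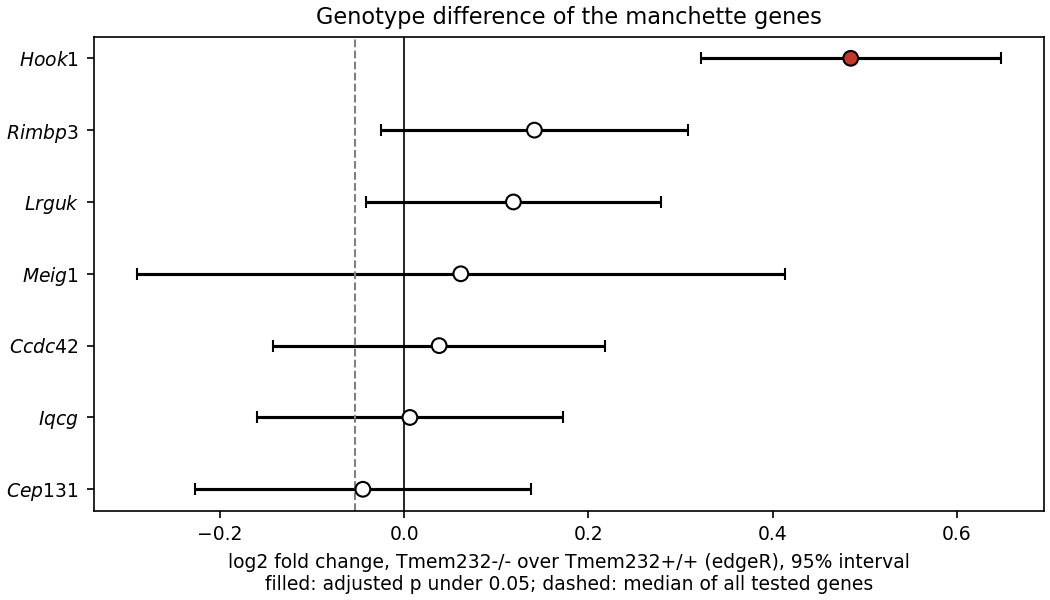
Log2 fold change of the libraries labelled knockout over those labelled wild type for the 7 genes, from edgeR, with 95% intervals; the dashed line is the median of all tested genes (-0.054). Hook1, the filled point at 0.48, is the only gene whose interval lies clear of 0.

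Levels of different genes were compared on the FPKM scale. In the libraries labelled wild type the order was Meig1 with a mean of 1932 FPKM, Ccdc42 with 111, Rimbp3 with 91.2, Iqcg with 53.6, Hook1 with 38.7, Lrguk with 27.3 and Cep131 with 26.2 FPKM. Meig1 exceeded Ccdc42 by 17.4-fold. Of these neighbours in order, only Lrguk and Cep131 had overlapping ranges. In the libraries labelled knockout the mean of Hook1 stood above that of Iqcg (52.6 FPKM), with overlapping ranges of 55.4 to 65.8 and 48.1 to 58.2 FPKM. Ccdc42 and Rimbp3 overlapped as well in that label, and Lrguk and Cep131 did not. The mean FPKM of Meig1 was reached by almost no other tested gene (percentile 99.99), and that of Cep131 lay at percentile 74.5.

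Pairs of the 7 genes differed in how alike they were from library to library. Meig1 and Ccdc42 had the most similar pattern, with a Pearson's r of log2 CPM of 0.94 over the 8 libraries and of 0.94 after the mean of each label was subtracted. Cep131 followed Ccdc42 with an r of 0.75, or 0.82 within labels. Rimbp3 and Lrguk had an r of 0.75, or 0.60 within labels. Hook1 had its highest r over the 8 libraries with Lrguk, at 0.69, or 0.53 within labels. With Meig1 it was 0.22, or 0.19 within labels, and with Ccdc42 0.32, or 0.45 within labels. The r of Hook1 moved more with Rimbp3, from 0.52 to -0.30 within labels, and with Iqcg, from 0.28 to 0.83, and with Cep131 it was -0.12, or 0.18 within labels. These values describe 8 libraries that share scaling and depth, and they carry no test.

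**Figure D4:**
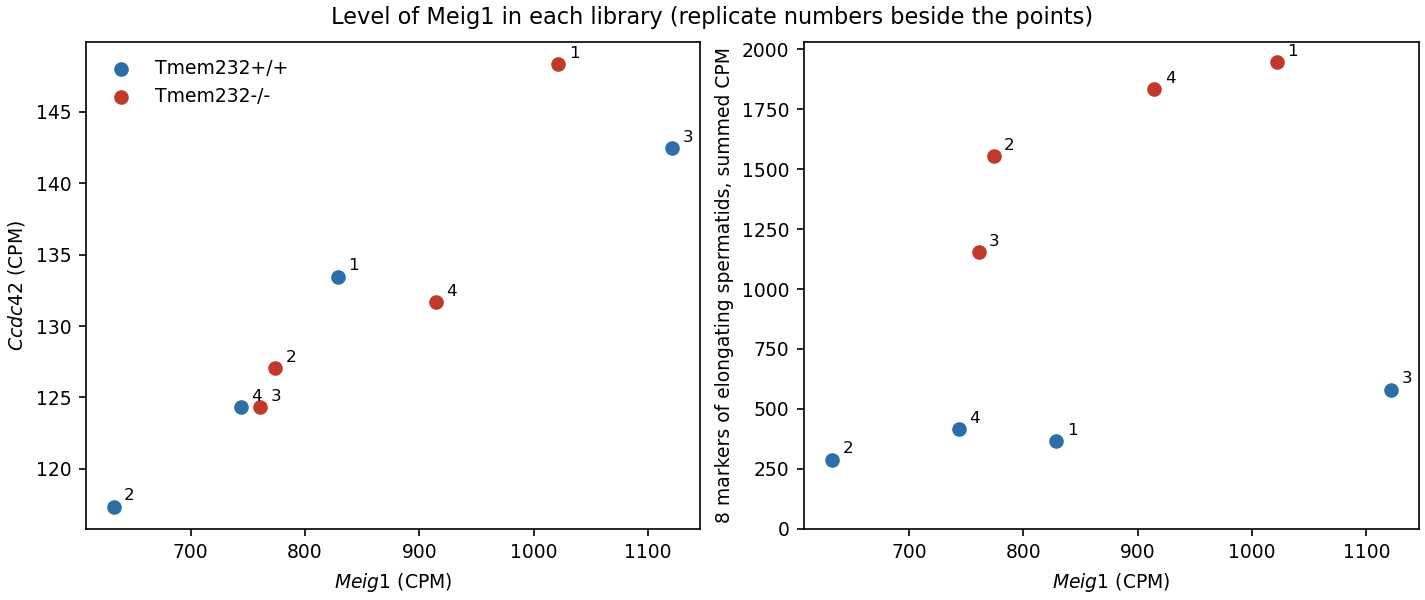
Left, CPM of Ccdc42 against CPM of Meig1 in each library; right, the summed CPM of 8 markers of elongating spermatids against CPM of Meig1. Within each label the library highest in Meig1, replicate 1 labelled knockout (1022 CPM) and replicate 3 labelled wild type (1121 CPM), was also highest in Ccdc42 and in the summed markers.

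Among genes with a mean of at least 1 CPM, those most like each of the 7 over the 8 libraries were named. They were Cacul1 (r = 0.99) and Slc30a1 (r = 0.99) for Hook1, Ulk4 and Smg6 for Rimbp3, Ift43 (r = 0.99) and Btf3 for Meig1, Dars and Tra2b for Iqcg, Ddias and Immt for Lrguk, Ppp1r36 (r = 0.996) and Zscan21 for Ccdc42, and Whamm and 9530077C05Rik for Cep131. IFT43 is a protein of intraflagellar transport. With Hook1, 909 genes had an r above 0.9, and with Cep131 only 9 had. These r were taken over both labels together, so for Hook1 they include the difference between the labels.

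The markers of late germ cells differed between the genotypes, in the same direction as Hook1. Of 8 markers of elongating spermatids, 8 were higher in the libraries labelled knockout, with a median log2 fold change of 2.60 and summed levels of 1154 to 1947 CPM against 288 to 581 CPM. Prm1, a protamine that packs sperm DNA, averaged 95.9 ± 39.8 CPM (SD, n = 4) under the knockout label and 4.55 ± 2.43 CPM under the wild-type label (SD, n = 4). Under the wild-type label Prm2 and Tnp1 were also low, with means of 6.44 and 5.95 CPM, where Sohlh1, a spermatogonia marker, had 5.75 CPM. The remaining markers of elongating spermatids ran there from 16.6 CPM (Tnp2) to 128 CPM (Smcp). Whether such low levels are usual for wild-type testes of this age was not tested. Of 8 markers of round spermatids 7, all but Acr, were higher, with summed levels of 719 to 892 CPM against 363 to 509.7 CPM. Lower were 3 of 8 markers of spermatogonia, with summed levels of 245 to 276 CPM against 292 to 326 CPM, and 2 of 5 of peritubular myoid cells, with 197 to 236 CPM against 250.2 to 296 CPM. Of the spermatogonia list, 5 were lower and 1 was higher at an unadjusted p under 0.05, the latter being Gfra1, a stem cell marker with a log2 fold change of 0.42 (95% interval 0.095 to 0.75), and Id4 had 0.013. Of the myoid list 4 were lower at that level. No marker of these 4 lists was at 0 in all libraries. Of the remaining lists, edgeR called 1 of 8 markers of spermatocytes (higher), 0 of 8 of Sertoli cells, 0 of 6 of Leydig cells, 0 of 5 each of macrophages, endothelial cells and red blood cells, and 0 of the 1 tested of epididymis. The summed epididymis markers stood at 31.96 CPM in replicate 1 and 11.02 CPM in replicate 3 labelled wild type and at 6.39 CPM in replicate 1 labelled knockout, and at 1.29 CPM or less in the other 5 libraries. Without these 3 libraries in turn, the log2 fold change of Hook1 was 0.52, 0.50 and 0.42. At an unadjusted p under 0.05 these zeros became 1 lower for Sertoli cells, 4 higher for Leydig cells and 1 lower for endothelial cells, and stayed at 0 for the other lists. At that level 2 spermatocyte markers were higher and 1 was lower, and 8 of 8 round spermatid markers were higher, Acr among them. The germ, Sertoli and Leydig markers of a testis were present. The part of these shifts in the difference of Hook1, and in the levels of the 6 other manchette genes, which were not called, was not tested.

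The related genes were taken from 4 lists of 39 genes in all, of which 38 were tested. By edgeR 10 of these 38 were higher in the libraries labelled knockout and 0 were lower (11 and 0 at an unadjusted p under 0.05), that is 26.3% higher where 10.3% of all tested genes were. Their median log2 fold change was 0.093. The lists were chosen with earlier results of these data known, so these shares are description and no test of the lists. Leaving out replicate 1 or 3 labelled knockout, or replicate 2 or 4 labelled wild type, reduced the 10 to 7. Clip1, Sun3, Spag4, Odf1, Spem1, Kifap3 and Kif17 were called in all 18 alternative fits.

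Among 7 genes for manchette microtubules and their severing, 2 were higher. Clip1, which encodes the plus-end tracking protein CLIP-170, averaged 149 ± 17.8 CPM (SD, n = 4) under the knockout label against 85.0 ± 2.47 (SD, n = 4), with a log2 fold change of 0.81 (edgeR adjusted p = 8.27e-05). Map7, a microtubule-stabilising protein needed for the manchette, had a log2 fold change of 0.22 (edgeR adjusted p = 0.035) and lost its call in 8 of 18 alternatives. Katna1, Katnal1 and Katnal2, whose products belong to the katanins that sever microtubules, had log2 fold changes of 0.038, 0.034 and 0.079 and were not called.

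Of 7 genes for links between manchette and nucleus, 2 were higher, Spag4 and Sun3, which encode SUN proteins of the nuclear envelope. Spag4, also called Sun4, stood at 76.5 ± 7.02 against 32.1 ± 3.48 CPM (SD, n = 4 each), with a log2 fold change of 1.25 (edgeR adjusted p = 2.11e-05). Sun3 stood at 39.6 ± 4.02 against 25.3 ± 5.01 CPM (SD, n = 4 each), with a log2 fold change of 0.65 (edgeR adjusted p = 0.0059). Sun1, another SUN gene of the list, had a log2 fold change of 0.10 (95% interval -0.054 to 0.25, edgeR adjusted p = 0.407) and was not called. The paralogs of Hook1 were not called either. Hook2, whose product binds LRGUK, had a log2 fold change of -0.0017 (95% interval -0.27 to 0.26), and Hook3 had -0.16 (95% interval -0.33 to 0.022).

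Among 9 partners and cargoes, 3 were higher. Spem1, needed for the cytoplasm to leave the sperm head, stood at 32.4 ± 12.5 against 4.34 ± 2.32 CPM (SD, n = 4 each), with a log2 fold change of 2.90 (edgeR adjusted p = 0.000195). Odf1, an outer dense fibre protein that binds CCDC42 and also stands in the list of elongating spermatid markers, had a log2 fold change of 1.33 (edgeR adjusted p = 9.97e-05). Odf2, another outer dense fibre protein, had a smaller log2 fold change of 0.31 and lost its call in 6 of 18 alternatives. Spag16 and Spag6l, of the central apparatus and linked to MEIG1, had log2 fold changes of 0.075 and -0.035 and were not called.

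Of 15 tested genes for transport along the manchette and tail, 3 were higher. Kif17, a kinesin motor of male germ cells, stood at 116 ± 15.1 against 54.9 ± 5.43 CPM (SD, n = 4 each), with a log2 fold change of 1.08 (edgeR adjusted p = 4.77e-05). Kifap3, the adaptor subunit of kinesin-2, had a log2 fold change of 0.68 (edgeR adjusted p = 0.000161), while the motor subunits Kif3a and Kif3b had -0.028 and 0.11 and were not called. Ift81, which binds tubulin, had 0.29 and lost its call in 6 of 18 alternatives. The 12 others, among them Ift20, Ift88, Ift140 and Ift172, had log2 fold changes between -0.12 and 0.17 without a call.

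**Figure D5:**
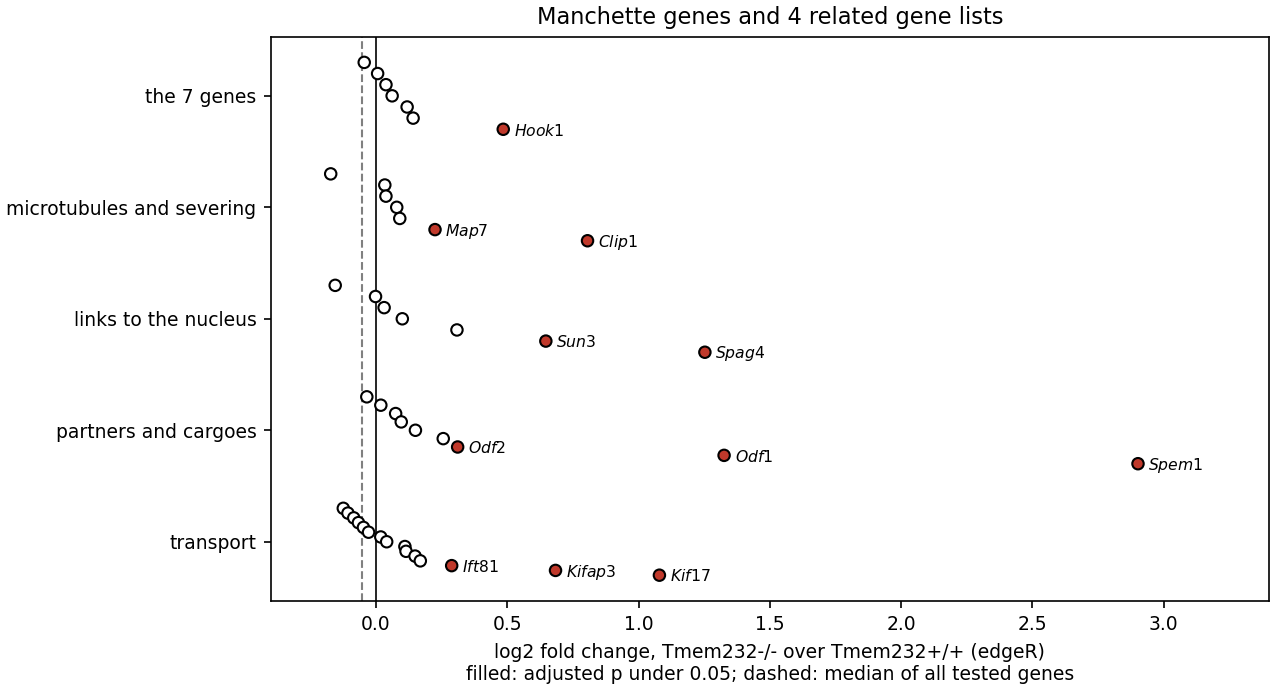
Log2 fold change (knockout label over wild-type label, edgeR) of the 7 manchette genes and of the 38 tested genes of the 4 related lists, 1 point per gene; filled points have an adjusted p under 0.05 and are named. In each row the filled points lie to the right of 0, and Spem1 at 2.90 is farthest.

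Promoter sequences from RefSeq (GRCm38.p6), from 250 bases before to 50 after a start site, were matched for 6 of the 7 genes, of which 5 are described (Hook1, Meig1, Iqcg, Lrguk and Cep131). Short stretches are shown for Hook1, the called gene, and for Lrguk, which was not called, to set their letters side by side. The letters GTTGCC or GTTGCT, the start of the X-box that RFX factors of ciliated cells and spermatids bind, were searched on both strands after the sequences had been seen. They occurred in a promoter of Meig1, Iqcg, Lrguk and Cep131, and in 27.9% of all 27025 genes with a promoter. The letters TGACGTCA, the cAMP response element that CREM, a factor of spermatids, binds, occurred for Lrguk alone of the 5 and in 2.03% of all genes. CCAAT, a common promoter box, occurred for Hook1, Meig1, Lrguk and Cep131 and in 41.1% of all genes. In the sequences below, written 5′ to 3′ on the gene's strand, capitals mark CCAAT or its reverse complement for Hook1 and the letters named above, on either strand, for Lrguk.
Hook1, chr4:95967129-95967180: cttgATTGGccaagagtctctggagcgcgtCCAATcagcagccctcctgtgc
Lrguk, chr6:34029418-34029447: gccaTGACGTCAgtctcctaGGCAACgcgt
The Hook1 stretch ends just before the first annotated Hook1 start and lies in a noncoding exon of 9530080O11Rik, and the Lrguk stretch lies outside GENCODE transcripts, although the table places the start of Lrguk before it. A match is no binding site, and the start sites used in these testes were not measured.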

How the data were processed

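RNA of 8 testes was sequenced as paired reads. Per the study's methods, the reads were mapped to GRCm38.p6 with HISAT and Bowtie2, and StringTie and featureCounts gave the gene values, with versions not given in the sources used here. The authors deposited estimated counts without normalization, of which 10.7% to 11.2% of genes per library were not whole, and FPKM. The log2 fold changes and q-values that the authors deposited from DESeq2, and their mean columns, were not used. Counts were rounded and tested with edgeR 4.0.16 in R 4.3.3 (default low-count filter, TMM, quasi-likelihood test, genotype as the single term, Benjamini-Hochberg over all tested genes). The exact permutation test ran over 70 arrangements of the libraries. Implied lengths were computed for genes with at least 5 FPKM in every library, the median shift of genes with 1 transcript was subtracted per library, and log2 values were tested with limma 3.58.1. Alternatives were DESeq2 1.42.0, its size factors, library size alone, leaving out the 10 most abundant genes, other low-count filters, limma-voom, log2 FPKM with pseudocounts of 1 and 0.1 in limma, a replicate block, and omission of each library. Transcripts came from GENCODE on GRCm38. The scripts were tested on simulated data. The 7 genes, the gene lists and the rule for named genes (the 7, called genes of the related lists with others as examples, Tmem232, markers, and the 2 genes most like each of the 7) were chosen with earlier results of these data known.
Some items of the lists and promoters are not reported here.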

Additional observations from a re-analysis of the deposited data

Results flagged for a closer look

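In each label's 4 libraries, the gap between the most extreme library and its neighbour was divided by the range, and 8 of 126 such groups exceeded Dixon's 95% critical value, where chance gives about 6.3. Implied lengths gave 4 of them. These were Rimbp3 in replicate 4 labelled wild type (5674.85 bases, others 5674.31 to 5674.40), Meig1 in replicate 4 labelled knockout (436.482 bases, others at least 437.375) and in replicate 2 labelled wild type (435.863 bases, others at most 435.009), and Iqcg in replicate 2 labelled wild type (3751.84 bases, others at least 3770.57). The Rimbp3 lengths differed by only a fraction of a base, and the part of rounding in the deposited FPKM was not tested. Replicate 4 labelled knockout had low levels of Katnal2 (90.7 CPM, others at least 104) and Sun1 (146 CPM, others at least 163). Replicate 3 labelled wild type was high in Kif3a (201 CPM, others at most 168) and low in summed markers of red blood cells (305 CPM, others at least 546).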

How the results depend on the processing

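Hook1, Rimbp3 and Lrguk kept direction and side of the threshold in 18 of 18 alternatives. The other 4 genes were called in none, but their small differences changed sign in some. Without 1 library at a time, log2 fold changes ran from 0.42 to 0.53 for Hook1, 0.098 to 0.22 for Rimbp3 and 0.097 to 0.20 for Lrguk (the highest of the last 2 without replicate 1 labelled wild type), from -0.050 to 0.27 for Meig1, -0.052 to 0.068 for Iqcg, -0.019 to 0.12 for Ccdc42 and -0.089 to 0.046 for Cep131. Iqcg was also at -0.030 with library size alone, -0.030 with log2(FPKM + 1) and -0.031 with log2(FPKM + 0.1). A fold change of at least 2 with an unadjusted p under 0.05 gave 0 of the 7 genes, 4 of the related genes, and 865 higher and 18 lower of all tested genes. The 10 related genes became 7 to 12 without 1 library at a time. Genes called lower, 230 in the main test, numbered 131 with DESeq2 size factors, 415 with library size alone, 71 without a low-count filter and 37 to 356 without 1 library at a time. Higher against lower calls were 1633 to 230, 1538 to 466 with log2(FPKM + 1) and 1533 to 448 with log2(FPKM + 0.1). The implied length of Hook1 ranged from -0.16 to -0.13 without 1 library at a time, on the log2 scale. Same-numbered libraries of the 2 labels did not deviate alike (correlations of deviations -0.27 to 0.038). The labels name no pairing, and these correlations cannot show whether mice were paired. With the replicate block, 7 related genes were higher, 28 of all genes were lower, and the implied length of Hook1 was -0.15 (limma adjusted p = 0.221). The causes were not tested.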
